A study of Bos taurus with 8 samples.

Results

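The rumen and the abomasum are both chambers of the ruminant stomach, and their RNA-Seq libraries were compared locus by locus. Of 36801 loci in the table of 8 cattle tissues, 13490 carried a transcript identifier, spanned at least 300 bases, had no failed or overloaded estimate in this pair and reached an FPKM (fragments counted per transcript, scaled to its length and to the library's depth) of at least 1 in the rumen or the abomasum. Each tissue gave 1 library, and the study's methylation samples of these tissues came from the Hereford cow L1 Dominette and relatives. The labels of the RNA-Seq libraries give no age or sex. The study's list of methylation samples from the same tissues gives the rumen as that of a male fetus and the abomasum as that of a juvenile female, and whether the RNA came from these animals is not stated in the sources used here. Tissue and animal, and with them any difference in age or sex, cannot be told apart below. The 6 other libraries, used as background, were whole testes, uterus intercaruncular tissue, nucleated blood cells, frontal cortex, mammary parenchyma and ileum, which that list gives as from an adult male (testes), adult females (uterus and blood cells) and juvenile females (the rest). With 1 library per tissue there was no replicate error, no test was possible, and every ratio describes a pair of libraries.

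The rumen is the large fermentation chamber of the forestomach. It is lined by a stratified squamous epithelium that keratinises and absorbs short-chain fatty acids. The abomasum is the glandular stomach, whose pits and glands hold mucous cells, pepsinogen-secreting chief cells and acid-secreting parietal cells. None of the identifiers matched the RefSeq gene list used here (0 of 26547), and no other source of gene symbols was used. Loci are therefore given by their position on the UMD3.1 assembly, and the tissue labels were not checked against named marker genes. In bulk tissue, fewer cells of a type and less RNA per cell cannot be told apart.

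Levels under 2-fold apart were common, in a proportion that moved with the scaling of the libraries. The level was at least 1 FPKM in both libraries at 11197 loci, and 7655 of these (68.4%), or 56.7% of all loci tested, differed by less than 2-fold. With both libraries rescaled to the same sum, 6390 of the 13490 loci did. All ratios were taken on FPKM + 1, which understates the difference at low loci. The median log2 ratio of rumen over abomasum was -0.05, the 25% and 75% quantiles were -0.81 and 0.72, and the 5% and 95% quantiles were -2.40 and 2.30. A level of at least 1 FPKM in the rumen alone was found at 830 loci, and in the abomasum alone at 1463.

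Nearly equal numbers of loci stood on either side. The rumen was at least 4-fold higher at 895 loci (6.63%) and the abomasum at 948 (7.03%). The balance depended on the scaling, since the summed FPKM of the tested loci was 1206080 in rumen and 700109 in abomasum, a log2 ratio of 0.78. With both libraries rescaled to the same sum, 531 loci were higher in rumen and 1707 in abomasum, and the rumen's part of all called loci changed from 48.6% to 23.7%. Centred on the median ratio of loci present in both, the counts were 877 and 977.

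**Figure D1:**
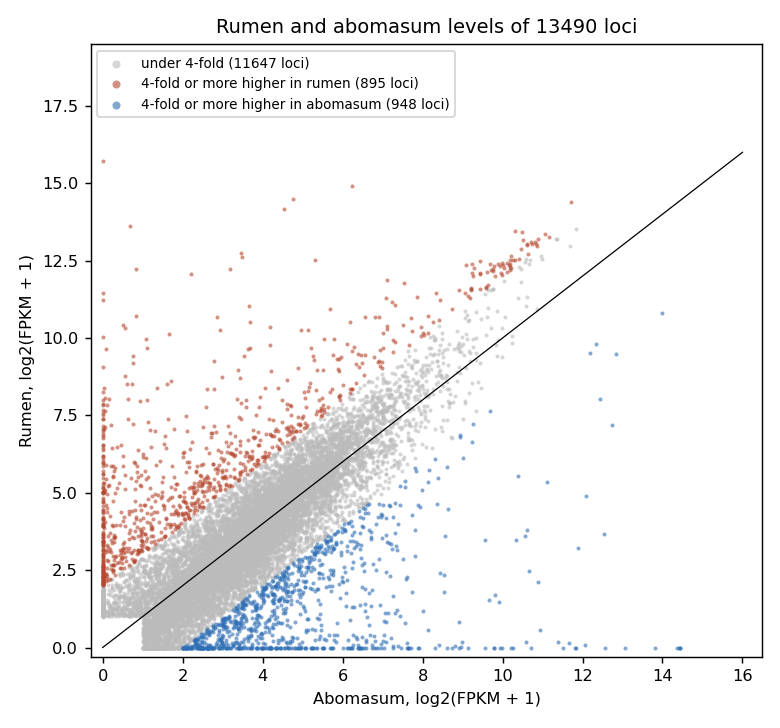
Levels of the 13490 loci in abomasum (horizontal axis) and rumen (vertical axis), both as log2(FPKM + 1), 1 point per locus, with the line of equal levels. The 895 loci higher in rumen lie above the line and the 948 higher in abomasum below it, and the points along the axes are loci listed at 0 in 1 of the libraries.

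Set beside the other pairs of tissues, the rumen and the abomasum were not the closest. Together 13.7% of the loci tested in this pair were past 4-fold, which placed it eighth from the lowest of 28 pairs. The lowest share was that of uterus and mammary parenchyma (8.80%) and the highest that of testes and blood cells (37.0%). The abomasum differed least from the ileum (9.23%), the next stretch of the digestive tract sampled, and the rumen least from the mammary parenchyma (12.4%). These shares rest on 1 library each and their order has no error.

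**Figure D2:**
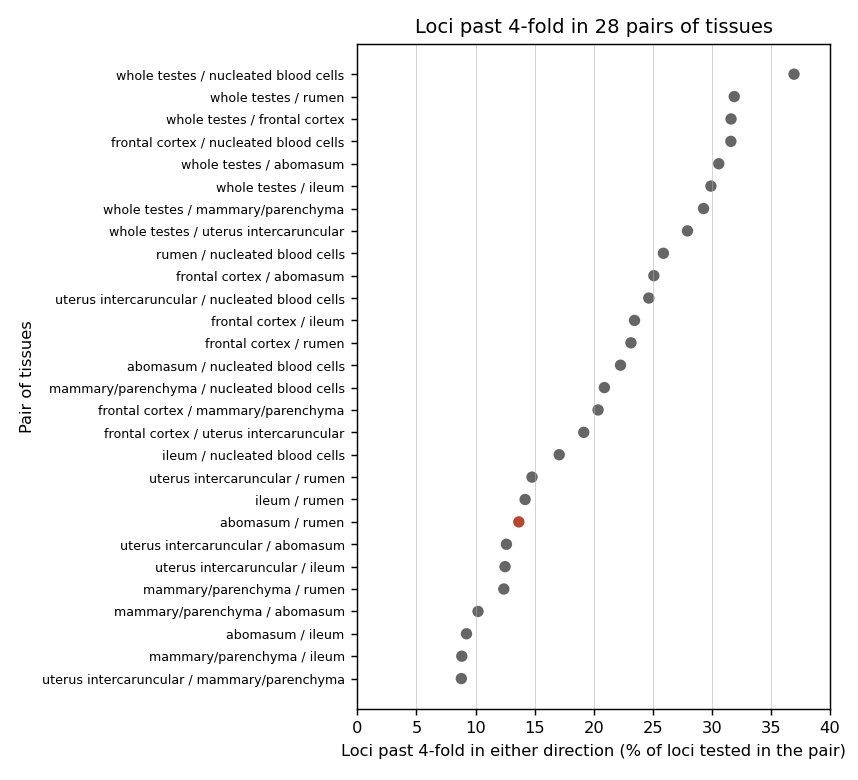
Share of loci past 4-fold in either direction (horizontal axis, % of the loci tested in each pair) for the 28 pairs of tissues, 1 library each. Rumen and abomasum, in red, stand eighth from the bottom at 13.7%, above abomasum and ileum at 9.23%.

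At the loci higher in rumen the median level was 46.1 FPKM in rumen and 2.99 in abomasum. Of the 895, 560 still reached 1 FPKM in the abomasum, 188 were above 0 but under 1, and 147 were listed at 0. The rumen was at least 32-fold higher at 134 loci. For 597 of the 895 loci (66.7%, against 15.6% of all tested loci) the rumen level was also the highest of the 8 libraries, and at 227 (25.4%, against 2.07%) it was 4-fold or more above each of the 6 background tissues. The rumen stood 4-fold above the median of the 6 background tissues at 542 loci (60.6%, against 6.57% of all tested loci), while the abomasum stood 4-fold below that median at 63 (7.04%, against 1.29%). The rule for the group used the rumen and abomasum values, so the rumen's high place among the 8 is a description.

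At the loci higher in abomasum the median level was 22.3 FPKM in abomasum and 0.858 in rumen. The rumen was listed at 0 at 206 of the 948, was above 0 but under 1 FPKM at 296, and reached 1 FPKM at 446. The abomasum was at least 32-fold higher at 153 loci. The abomasum had the highest level of the 8 libraries at 495 of the 948 (52.2%, against 11.8% of all tested loci) and was 4-fold above each background tissue at 121 (12.8%, against 1.15%). The abomasum stood 4-fold above the median of the 6 background tissues at 497 loci (52.4%, against 6.03% of all tested loci), and the rumen 4-fold below it at 184 (19.4%, against 2.91%). Here too the rule for the group used the values of both libraries, so the abomasum's high place among the 8 is a description.

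On both sides each background tissue shared the difference at a larger share of the called loci than of all tested loci. Of the loci higher in abomasum, 408 (43.0%) were also 4-fold higher in ileum than in rumen, against 7.15% of all tested loci. Nucleated blood cells were 4-fold above the rumen at 272 (28.7%, against 8.25%), mammary parenchyma at 255 (26.9%, against 4.59%) and uterus at 229 (24.2%, against 5.18%). Testes (187 loci, 19.7%, against 11.9%) and cortex (155 loci, 16.4%, against 8.29%) followed. Ileum had the highest level of all 8 libraries at 99 of the loci (10.4%, against 4.30% of all tested loci), and blood cells at 146 (15.4%), under their 17.0% of all tested loci. Of the loci higher in rumen, 235 (26.3%, against 9.15%) were also 4-fold higher in frontal cortex than in abomasum. Cortex was the highest of all 8 at 122 (13.6%), near its 14.5% of all tested loci. Mammary parenchyma was 4-fold above the abomasum at 145 (16.2%, against 2.96%), ileum at 134 (14.97%, against 4.14%) and uterus at 129 (14.4%, against 4.05%). Testes (148 loci, 16.54%, against 11.1%) and blood cells (79 loci, 8.83%, against 6.24%) were nearer to their shares of all tested loci. These comparisons share the rumen or the abomasum library with the call itself, so a larger share at the called loci is partly built in.

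The locus with the highest ratio towards rumen, ENSBTAT00000014222 at chr26:21055939-21108833, had 53850 FPKM in rumen and was listed at 0 in the 7 other libraries. It was the most abundant tested locus of the rumen. The table lists 6 loci with these same coordinates, so how the reads were divided among them bears on this value. The next, at chr14:79520528-79583443, had 12524 FPKM in rumen and 0.602 in abomasum, with 10.01 in cortex, 1.89 in uterus, 0.373 in blood cells and 0 in testes, mammary parenchyma and ileum. This locus stood alone at its coordinates and was 7821-fold higher in rumen on the FPKM + 1 scale. Another locus with little signal elsewhere, chr13:63085483-63095523, had 4833 FPKM in rumen, 0.775 in abomasum and at most 3.31 in the 6 background tissues.

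Some of the loci with the highest ratios were also high in 1 or 2 background tissues. At chr19:42356580-42361460 the rumen level was 1356 FPKM and the abomasum level 0.427, while mammary parenchyma had 789 and no other library more than 1.43. At chr5:27336268-27547631 it was 4258 in rumen, 3.61 in abomasum and 348 in mammary parenchyma, with at most 3.28 elsewhere. The bovine keratin genes lie on chromosomes 19 and 5 (29 and 28 symbols in RefSeq, ARS-UCD2.0), and keratins form the filaments of epithelial cells. That is background to the chromosomes: the loci were not matched to those genes. At chr5:44351615-44357569 the rumen had 1687 FPKM, the abomasum 0.793 and the ileum 125, and the other 5 libraries at most 0.523. At chr5:111261438-111267705 the cortex exceeded the rumen (4653 against 2786 FPKM), the uterus had 1425 and the other 5 libraries, abomasum included, were listed at 0.

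The remaining loci among the 10 highest were chr25:1596104-1666088 (2402 FPKM in rumen) and chr3:55819055-55942687 (1040 FPKM), both listed at 0 in the 7 other libraries, and chr12:36326549-36340957. The last had 1281 FPKM in rumen, 0.482 in abomasum and at most 10.6 elsewhere. Of the 10, the 2 just named with no signal elsewhere, this one, the first and those at chr5:27336268-27547631 and chr5:111261438-111267705 share their coordinates with other listed loci.

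On the abomasum side 4 loci with very high levels stood in pairs on chromosomes 1 and 11. ENSBTAT00000043564 at chr1:144176745-144180011 had 22254 FPKM in abomasum, 30.6 in blood cells, 2.96 in testes, 0.476 in ileum and 0 in rumen and the rest. Its neighbour at chr1:144191000-144196766 had 20994 FPKM in abomasum, 1.61 in blood cells and 1.09 in ileum, and was listed at 0 in rumen and 4 further libraries. ENSBTAT00000017203 at chr11:67283485-67291738 had 22248 FPKM in abomasum, and its neighbour at chr11:67257758-67269135 had 21677. Both were listed at 0 in rumen and in all background tissues except blood cells, where they had 3.62 and 3.39. In RefSeq, chromosome 1 carries the 3 trefoil factor genes and chromosome 11 the 2 gastrokine genes. Trefoil factors are secreted by mucous cells of the digestive tract, and gastrokines by those of the stomach. The loci were not matched to them, and all families given here were looked up after the values had been seen.

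The other 6 of the 10 lowest ratios were all at or near 0 in the rumen. At chr5:44421169-44720998 the abomasum had 14336 FPKM, the ileum 32.7, the rumen 0 and the other 5 libraries at most 3.47. At chr4:25256264-25271426 the abomasum had 6010, the ileum 594, the uterus 21.2 and the rumen 0. The locus at chr29:51371105-51461985 had 4283 FPKM in abomasum, 0.0606 in rumen and at most 0.922 elsewhere. Another on the same chromosome, chr29:40456336-40466766, had 3626 in abomasum, 8.93 in ileum, 7.93 in blood cells and 0 in rumen. The locus at chr19:25000944-25064462 had 3577 FPKM in abomasum and was listed at 0 in the 7 other libraries. At chr15:1802549-1889711 the abomasum level of 8501 FPKM was accompanied by 1767 in uterus and 1278 in blood cells, with the other 5 listed at 0. Of these 6, those on chromosomes 5, 15 and 19 and the first on chromosome 29 share their coordinates with other listed loci.

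**Figure D3:**
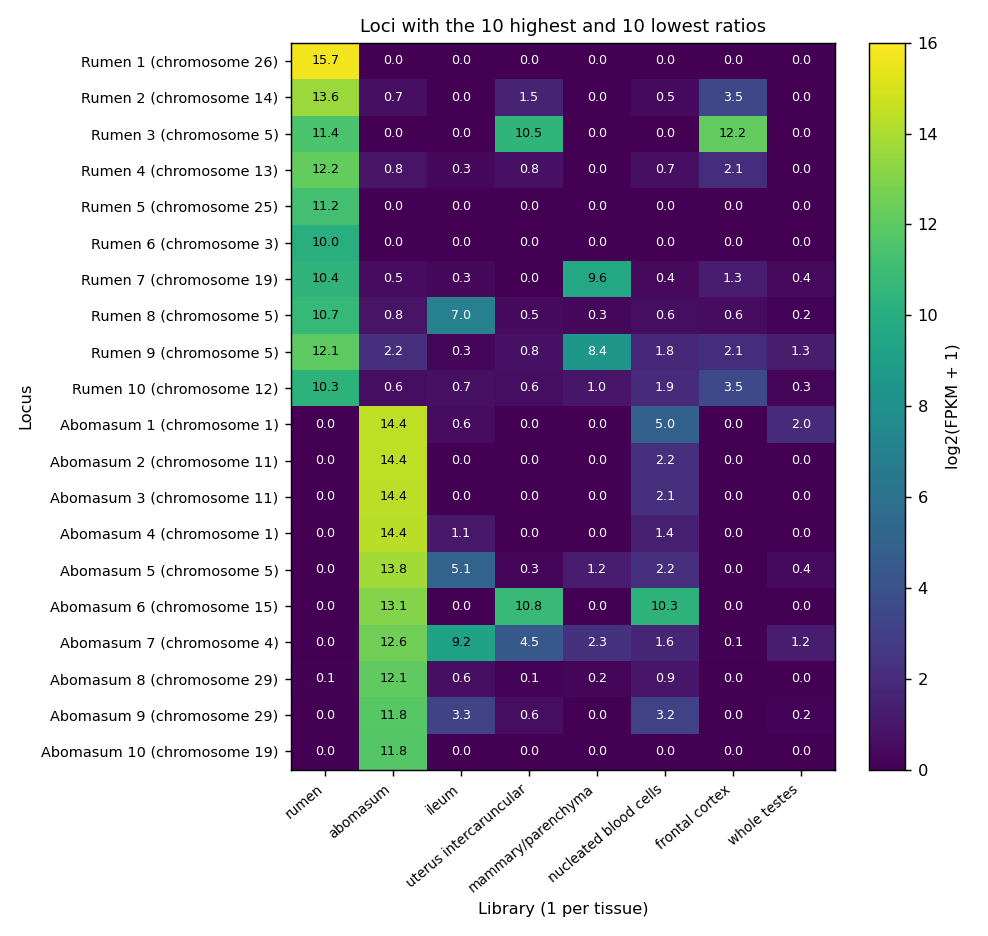
Levels, as log2(FPKM + 1), of the 10 loci with the highest and the 10 with the lowest ratio of rumen over abomasum (rows) in the 8 libraries (columns). Besides rumen, high values appear in cortex and uterus for the third row in mammary parenchyma for the seventh and ninth and in ileum for the eighth, and the 10 abomasum loci are at or near 0 in rumen.

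A few loci made up much of each library. The 10 most abundant tested loci held 17.0% of the summed FPKM in rumen and 20.9% in abomasum, and the 50 most abundant 39.5% and 36.2%. Of the rumen's 50, 40 were 4-fold higher in rumen, against 6.63% of all tested loci. Of the abomasum's 50, 28 were 4-fold higher in abomasum, against 7.03%. Each list was picked by high levels in its own library, so an excess of calls towards that library is partly built in. The lists had 20 loci in common (40% of each). All 20 were higher in rumen, 12 of them by 4-fold or more, and none was within 2-fold, beside the log2 difference of 0.78 in summed FPKM.

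The most abundant loci of the rumen were of different kinds. That at chr3:17163356-17165408 had 31149 FPKM in rumen, 74.8 in abomasum and 4387 in blood cells, with at most 24.7 elsewhere. RefSeq places the 14 S100A genes, for calcium-binding proteins some of which are made by epithelia or myeloid cells, on chromosome 3 (not matched to the locus). That at chr19:42472430-42490861 had 23113 FPKM in rumen, 25.9 in abomasum and 182 in mammary parenchyma, and that at chr19:14602391-14641748 had 18328 in rumen, 22.2 in abomasum and at most 35.3 elsewhere. Both were largely limited to the rumen. By contrast, chr10:16324341-16326492 was abundant in every library, with 21580 FPKM in rumen, 3331 in abomasum and 1819 to 7353 in the background tissues.

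In the abomasum the 4 loci on chromosomes 1 and 11 were the most abundant. The fifth, chr19:49329691-49337996, had 16344 FPKM in abomasum and 1783 in rumen, but blood cells (22262), ileum (13006) and uterus (12581) were also high, mammary parenchyma was lowest (591), and testes and cortex had 2778 and 4049. The rumen and mammary parenchyma had the lowest levels of the 8 libraries at this locus.

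Locus span was related to the rumen calls. Of 703 tested loci spanning 300 to 3000 bases, 15.4% were higher in rumen and 7.68% in abomasum. The rumen share was 10.1%, 6.02%, 5.06% and 4.43% in the classes from 3000, 10000, 30000 and 100000 bases upwards, while the abomasum share stayed between 6.33% and 8.20%. The median span was 17239 bases for loci higher in rumen, 31563.5 for those higher in abomasum and 29374 for the rest. The cause of this relation was not tested.

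The loci past 4-fold were not spread evenly over the chromosomes. Chromosome 24 had the highest share higher in rumen (13.2% of 190 tested loci, against 6.63% overall), and without its run of 8 neighbouring loci described next the share was 9.34%. Chromosome X had the lowest (3.50% of 428). For the abomasum the highest shares were on chromosomes 6 (11.5%), 23 (11.3%) and 1 (11.2%).

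Neighbouring loci past 4-fold in 1 direction were grouped into runs of at least 4 with starts no more than 200 kb apart. There were 25 runs of loci higher in rumen, holding 124 loci (13.9% of those called), and 16 of loci higher in abomasum, holding 74 (7.81%). In 4 runs of each direction every tested locus inside was called. Counting loci with the same coordinates once, an alternative added with the data in view, gave 21 and 11 runs. Other settings moved the counts further, to 6 and 6 at a fold of 8 and to 51 and 39 with gaps of up to 500 kb.

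The run with most loci and no other tested locus inside it lay at chr24:62248829-62639258. All 8 tested loci were higher in rumen, by a median of 46.8-fold, and at all 8 the rumen was the highest of the 8 libraries. The levels in rumen were 182, 91.7, 31.97, 688, 799.9, 5.39, 32.8 and 137 FPKM in order of position. The first had 25.1 FPKM in abomasum, and the other 7 had at most 0.677 there. The largest ratio was at chr24:62427625-62451599, with 799.9 FPKM in rumen, 0.0513 in abomasum and at most 0.352 in the background tissues, a 762-fold difference on the FPKM + 1 scale. RefSeq places 7 of 11 serpin B genes, intracellular protease inhibitors many of which are made by squamous epithelia, on chromosome 24 (not matched to these loci).

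The other large rumen runs were less uniform. At chr17:74620666-75038976, 8 of 25 tested loci were higher in rumen and 1 in abomasum, by a median of 4.98-fold, and only 3 had their highest level in rumen. Its largest ratio, at chr17:75036894-75038976, had 71.1 FPKM in rumen and 0 in abomasum, but mammary parenchyma was also at 0 and the other 5 tissues had 72.1 to 314. At chr25:113120-615969, 7 of 27 were called, and at the largest ratio, chr25:307203-309735, the cortex (217 FPKM) exceeded the rumen (26.4), with the abomasum at 0. At chr11:105790354-106411133, 7 of 41 were called, with the largest ratio at chr11:105790354-105790698 (33.7 FPKM in rumen, 0.761 in abomasum). That locus spans 345 bases, and its abomasum level is under the 2.61 FPKM of 3 reads on 300 bases. At chr13:67748589-68008381, 6 of 9 were called at 4 positions, and 1 of the 4 loci listed at chr13:67984328-67990769 had 229.7 FPKM in rumen, 38.8 in uterus and 0 in the other 6 libraries.

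Among the abomasum runs, that at chr1:144067291-144437238 had the lowest median log2 ratio of the 5 largest, -9.78. It held 5 loci, all those tested there, and 4 of them were listed at 0 in rumen. Beside the pair described above (20994 and 22254 FPKM), its first locus had 878 FPKM in abomasum and 295 in ileum, the fourth had 15.4 in abomasum and at most 0.154 in the 7 other libraries, and the last had 46.2 in abomasum and 10.1 in rumen.

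At chr21:71453612-71596570 all 6 tested loci were higher in abomasum, but the abomasum was the highest of the 8 libraries at 1 of them and the ileum at the rest. The largest ratio was at chr21:71453612-71475799, with 5907 FPKM in abomasum, 11.7 in rumen, 4720 in ileum, 2606 in uterus, 407 in blood cells, 67.1 in mammary parenchyma and at most 8.29 in cortex and testes. The last locus of the run had 4313 FPKM in abomasum, 28.8 in rumen and 4715 in ileum. At chr17:72815092-73152866, 5 of 7 tested loci were higher in abomasum and 1 in rumen, and 4 of the 5 stood at the same coordinates, chr17:72826635-73152866. The most abundant had 6806 FPKM in abomasum, 144 in rumen, 10922 in ileum and 5685 in mammary parenchyma, and that with the largest ratio 1553 in abomasum, 12.9 in rumen and 2442 in ileum. At the loci given on chromosomes 17 and 21 the rumen, cortex and testes were the lowest of the 8 libraries.

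The remaining large abomasum runs had smaller levels. At chr17:63302809-63678196, 6 of 12 tested loci were called, and the largest ratio was at chr17:63653003-63678196, with 34.3 FPKM in abomasum against 0.897 in rumen, while blood cells had 46.3. The first locus, chr17:63302809-63335972, had 14.3 FPKM in abomasum and 0.237 in rumen, but 906 in nucleated blood cells. At chr18:55635154-55833103, 5 of 12 were higher in abomasum and 1 in rumen, the 5 with levels of 6.49 to 72.0 FPKM in abomasum and at most 2.05 in rumen. Its largest ratio was at chr18:55635154-55709079, with 45.5 FPKM in abomasum, 11.8 in ileum and 0 in rumen.

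Loci of opposite direction also stood side by side. Runs with at least 2 loci past 4-fold in each direction, a grouping added after the data had been seen, numbered 23. At chr19:42356580-42655972, 5 loci were higher in rumen and 3 in abomasum, and the direction changed 5 times along the run. The first locus had 1356 FPKM in rumen against 0.427 in abomasum, and the next, chr19:42366660-42370493, 45.7 against 1347, with 1108 in mammary parenchyma and 851 in ileum. At 6224 and 23113 FPKM the following pair was again higher in rumen (10.1 and 25.9 in abomasum), while chr19:42565344-42567655 had 197 FPKM in abomasum, 0 in rumen and at most 0.614 elsewhere.

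A similar alternation was present at chr5:27171925-27547631. From its first position, the loci had 813 and 1620 FPKM in abomasum against 1.92 and 4.54 in rumen, then 1.17 against 256.4, then 25.7 and 7.18 against 0.148 and 0.0485, and last 3.61 against 4258. The mammary parenchyma (151 and 273 FPKM), uterus (84.8 and 84.5) and ileum (72.8 and 720) also had signal at the first 2 loci. The third was at most 0.835 in the background tissues. At chr5:44351615-44720998, 3 loci were higher in rumen and 3 in abomasum. The rumen had 1687, 216 and 164 FPKM at its 3, the second of which had 4791 in ileum and the third 1880 in blood cells. The abomasum had 14336, 2921 and 1008 at its 3, all listed at 0 in rumen and at most 32.7 elsewhere. RefSeq places 3 lysozyme c genes, for antibacterial enzymes some of which serve digestion in the ruminant stomach, on chromosome 5 (not matched to these loci). All but the first of these 6 loci share the coordinates chr5:44421169-44720998, so the division of reads among them bears on each value.

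**Figure D4:**
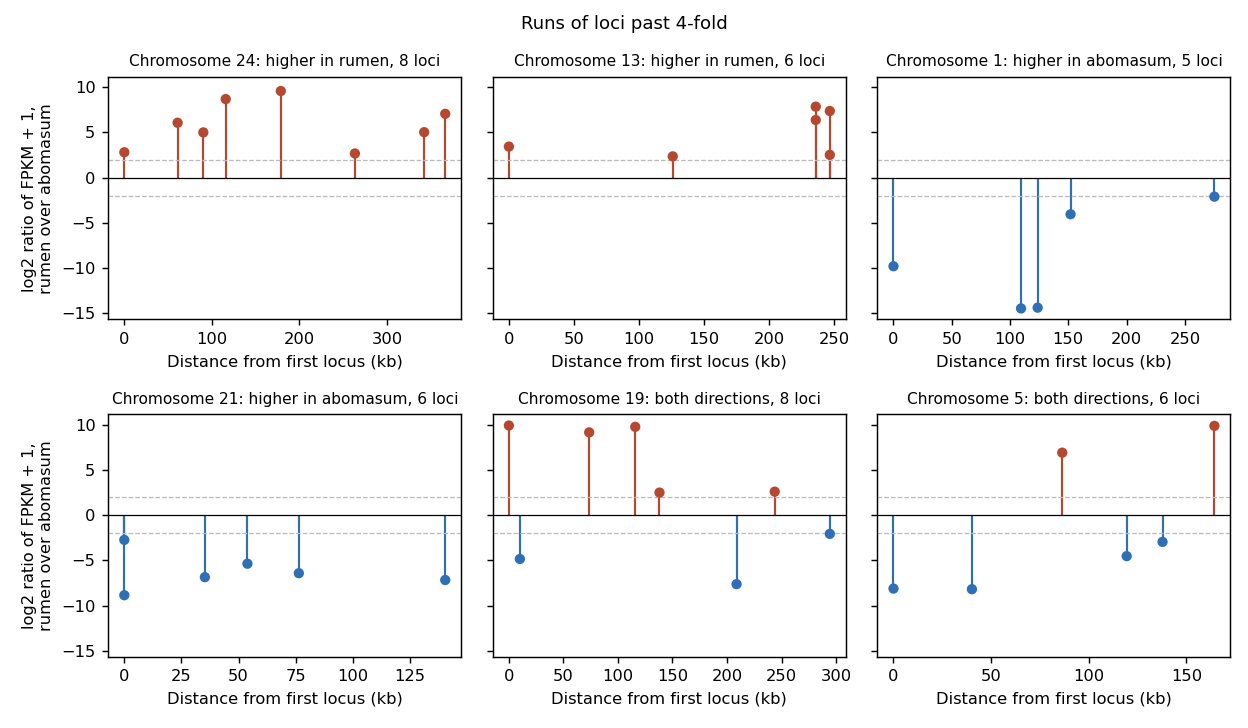
Log2 ratio of FPKM + 1, rumen over abomasum (vertical axis), of the loci past 4-fold in 6 runs, by distance from the first locus in kb (horizontal axis), with dashed lines at 4-fold. All 8 loci of the chromosome 24 run lie above 0 and all 5 of the chromosome 1 run below it, while the runs on chromosomes 19 and 5 change direction along their length.

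Loci that set both stomach libraries apart from the other tissues were few. In 93 loci (0.689%) the lower of rumen and abomasum was at least 2-fold above each of the 6 background tissues. This was the seventh highest count of the 28 pairs of tissues, and abomasum and ileum had 129. The 93 included 48 that differed by less than 2-fold between rumen and abomasum, 21 at least 4-fold higher in rumen and 1 at least 4-fold higher in abomasum. Of all tested loci, 56.7% reached 1 FPKM in both libraries and differed by less than 2-fold. The rumen was at least 4-fold higher at 6.63% of all tested loci, and the abomasum at 7.03%. At 21 of the 93 loci the margin over the background was 4-fold or more and at 8 it was 10-fold or more. Without the ileum as background the count was 159. Leaving out any background tissue can only raise the count, and leaving out 1 of the others gave 112 to 125.

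The margin was largest at chr3:23643772-23667741, with 2836 FPKM in rumen, 322 in abomasum and at most 2.29 in the background tissues, a 98.0-fold margin. At chr18:46033468-46040019 the levels were 897 in rumen and 402 in abomasum, and no other tissue had more than 4.12. At chr21:59310688-59322006 the abomasum was the higher, with 572 FPKM against 298 in rumen and at most 4.87 elsewhere. The levels at chr1:106849993-106880435 were 325 in rumen and 258 in abomasum, with 7.56 in cortex and 3.38 in ileum as the next highest. At chr21:55515159-55550935 they were 59.7 and 27.1, with at most 0.219 elsewhere. The first of the 5 differed by 8.79-fold between the chambers and the other 4 by at most 2.23-fold.

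**Figure D5:**
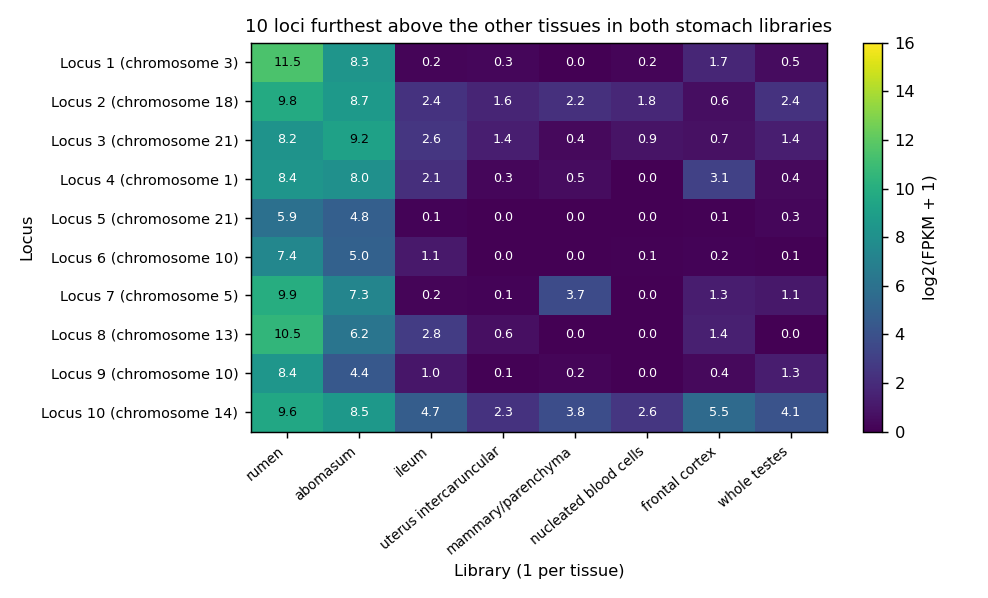
Levels, as log2(FPKM + 1), of the 10 loci furthest above the 6 background tissues in both stomach libraries (rows) in the 8 libraries (columns). The first 2 columns are high throughout, and the rumen is the higher at 9 of the 10 loci.

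The most abundant shared loci, under 2-fold apart, were high in every library. At chrX:140973433-140975899 the levels were 1977 FPKM in rumen and 1876 in abomasum, and 1034 to 5368 in the background tissues. At chr4:77409134-77413143 they were 2570 and 1562, and 898 to 1649 elsewhere. The loci at chr19:51868429-51871276 (2088 and 1546), chr25:39343632-39347049 (2491 and 1342) and chr5:104237902-104241979 (1076 and 1214) completed the 5. None of the 5 stood above all 6 background tissues by 2-fold in both chambers.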

How the data were processed

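Total RNA of 8 tissues was sequenced as single-end reads (1 library each). The authors aligned the reads with TopHat2 2.0.13 to UMD3.1 and computed FPKM with Cufflinks, and the deposited table gives FPKM per locus for each pair of libraries. Its columns of the authors' own fold changes, test statistics, p-values, q-values and calls were not used. FPKM of rumen and abomasum were compared as log2 of the ratio of FPKM + 1, and a locus was called at 4-fold or more. No replicates were available, so no test, error or p-value was computed. Calculations used Python 3.11.15 with pandas 2.3.3 and numpy 2.4.6.

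FPKM steps of loci spanning 88 to 130 bases gave scaled depths of 15511000 reads (rumen, 99.4% of 178 values within 0.03 of whole reads) and 13357000 (abomasum, 99.8% of 519). On a 1000-base transcript 3 reads then correspond to 0.264 and 0.307 FPKM, for counting error only, and on 300 bases to 2.25 and 2.61. Levels below these, for the length concerned, are not distinguishable from 0. A short locus could therefore enter at 1 FPKM on fewer than 3 reads. Of the tested loci, 4287 (31.8%) share their coordinates with another listed locus, and 9 identified loci were left out as failed or overloaded.

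Loci named in the text were the 10 highest and 10 lowest ratios, the 5 runs per direction with most called loci (ties by the larger median ratio) with the locus of largest ratio in each, the 5 most abundant loci per library, the 5 shared loci with the highest lower level, and the 5 loci furthest above the 6 background tissues in both libraries. Further loci of the runs and the runs of mixed direction were added with their values in view, as were the RefSeq gene families given as background to a chromosome. The comparison, its members and lists were chosen with earlier results of these data known. Marker lists by gene symbol were not used, because no identifier matched the RefSeq gene list. Alternatives are given in the closing section.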

Additional observations from a re-analysis of the deposited data

Results flagged for a closer look

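Loci of at least 300 bases without an identifier were outside the comparison and still held signal above 3 reads on 300 bases. Of 3512 such loci, 494 (14.1%) were at least 4-fold higher in rumen and 754 (21.5%) at least 4-fold higher in abomasum. The loci with an identifier had 6.63% and 7.03%, under a different filter on low values, and the difference between the kinds of loci was not tested.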

How the results depend on the processing

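Of 69 alternative values, 44 were within 1.5 times the value reported, but 4 of these could not move by construction (the 3 counts with no filter on FPKM, and shared loci without those listed at 0 in the 7 other libraries), and leaving out a background tissue could only raise a count. The exceptions for loci higher in rumen (895) and in abomasum (948) were 2505 and 2716 at a fold of 2, 386 and 431 at a fold of 8, 531 and 1707 after rescaling to the same sum, and 596 and 612 without loci of shared coordinates (added with the data in view). A pseudocount of 0.1 gave 1636 for abomasum. Shared loci (7655) were 4501 at an absolute log2 ratio under 0.5. Loci above the 6 background tissues in both libraries (93) were 21 at 4-fold and 159 without ileum. Rumen runs (25) numbered 15 and 51 with gaps of 100 and 500 kb, 6 at a fold of 8, 12 with identifiers at 1 locus alone and 44 with a pseudocount of 0.1, and abomasum runs (16) numbered 5, 39, 6, 7 and 40. The pair's share of loci past 4-fold (13.7%) was 38.7% at a fold of 2, 6.06% at 8 and 21.6% with a pseudocount of 0.1, and its place from the lowest was 10, 8 and 8. For the settings that change a fold, gap or set of loci, fewer or more loci enter by construction, and for the others the cause was not tested. Values of loci listed at 0 and those sharing coordinates are limited by how the reads were assigned. Levels under 0.307 FPKM on 1000 bases, or under 2.61 on 300 bases, are limited by depth. No paired analysis was possible because a single library stood for each tissue.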

Other observations

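Loci with at least 500 FPKM in rumen and 4-fold above each of the 7 other libraries numbered 57. Their median level was 29.9 FPKM in abomasum (1.94% of the rumen level as the median ratio), 11.7 in mammary parenchyma, 7.78 in uterus, 4.29 in cortex, 2.62 in ileum, 2.29 in testes and 1.98 in blood cells. Cortex was listed above 0 at 54 of the 57 and ileum at 40, at any value. The corresponding loci of the abomasum numbered 28, with a median of 0 in rumen and cortex, 0.893 to 0.942 in ileum and blood cells, and lower values in the others, and 17 of them were listed at 0 in rumen. Blood cells were listed above 0 at 21 of the 28 and ileum at 19, and these counts include values too low to be told from 0. The explanation of these low levels was not tested.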
